A study of Mus musculus with 18 samples.

Results

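The genes described here are 9 erythroid regulators and heme genes, Gata1, Gata2, Klf1, Tal1, Runx1, Epor, Alas2, Blvrb and Slc4a1. They were chosen by symbol, and all 9 were found among the 31053 mouse genes of the files. Expression was measured by droplet single-cell RNA sequencing (10x Genomics, 3′ v3) in 18 libraries of 1 mouse embryo each, all collected at embryonic day 8.5 on the 129S4/SvJae background. The groups were 7 wild-type embryos (WT), 3 Dnmt1 null embryos (Dnmt1 KO), 4 Dnmt3a null embryos (Dnmt3a KO) and 4 Dnmt3b null embryos (Dnmt3b KO). DNMT1 copies DNA methylation onto newly replicated strands, and DNMT3A and DNMT3B set it de novo. Null embryos came from matings of heterozygous mice and lacked the enzyme in every tissue, the yolk sac and other extraembryonic tissues included. The labels do not tie a WT embryo to a litter, so litter and genotype cannot be told apart. From cell type proportions, the paper reports a minor delay of its Dnmt1 KO embryos, which included published CRISPR embryos. It matched most WT, Dnmt3a KO and Dnmt3b KO embryos to reference embryos at or just before the stage of collection. Stage and genotype therefore cannot be told apart for Dnmt1 KO here.

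Primitive red cells form in the yolk sac from mesoderm that also gives rise to endothelium. TAL1 and RUNX1 act early in this lineage and GATA2 in progenitors and endothelium. GATA1 then takes over GATA2 sites, Gata2 is silenced in the course of maturation, and GATA1 with KLF1 drives the genes of globin, heme and the red cell membrane. EPOR is the receptor for erythropoietin, ALAS2 starts heme synthesis in red cells, BLVRB reduces biliverdin, a product of heme breakdown, and SLC4A1 is the anion exchanger band 3 of the membrane.

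The kept cells, those with at least 1500 mouse unique molecular identifiers (UMIs, each a counted RNA molecule) that passed the quality filters, numbered 108028, or 1361 to 12597 an embryo, with 36466660 to 234638944 UMIs an embryo. Median UMIs per cell ran from 4400 to 60557. Dnmt3b KO 1 and 2 shared 12249 cell barcodes, against at most 133 between any other pair of libraries, and were summed and counted as 1 replicate, so n = 3 for Dnmt3b KO. By summed Y-linked RNA the 3 Dnmt1 KO and 4 Dnmt3a KO embryos were male, as were WT 2 and Dnmt3b KO 1, 2 and 11, and the others were female, so sex and genotype overlap. Levels are CPM, the UMIs of a gene per 1000000 UMIs in the summed cells of an embryo. A gene passed the test, and is said to have risen or fallen, if its adjusted p was below 0.01 and its level changed by 1 or more on the log2 scale (edgeR quasi-likelihood test, Benjamini-Hochberg adjustment over all genes tested).

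The targeted genes were checked first, over all kept cells of an embryo. Dnmt1 lay at 14.9, 15.7 and 15.3 CPM in Dnmt1 KO 1, 2 and 3 against 83.3 to 116 in WT, and Dnmt3a at 7.47 to 11.7 CPM in Dnmt3a KO against 23.1 to 35.1 in WT. Dnmt3b was not lower in Dnmt3b KO (54.5 to 68.4 CPM in the 4 libraries against 35.5 to 87.3 in WT), so RNA of this gene, read from its 3′ end, does not check that label. Dnmt3a was low in 2 libraries labelled Dnmt3b KO, at 7.57 CPM in Dnmt3b KO 12, within the range of Dnmt3a KO, and at 15.2 in Dnmt3b KO 11, below the WT range. Counts of members that passed in Dnmt3b KO, and its Gata2 and Runx1 differences in the erythroid comparisons, are therefore also given without each of these 2 libraries.

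In GRCm38.p6 the 9 genes lie on 8 chromosomes. Gata1 (chrX:7959260-7978071, minus strand) and Alas2 (chrX:150547375-150570638, plus strand) share the X chromosome. Gata2 is at chr6:88193891-88207032 (plus), Klf1 at chr8:84901928-84905291 (plus), Tal1 at chr4:115056426-115071755 (plus) and Runx1 at chr16:92601466-92826149 (minus). Epor is at chr9:21958897-21963506 (minus), Blvrb at chr7:27447978-27466144 (plus) and Slc4a1 at chr11:102348824-102366203 (minus).

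The 120 bases upstream of RefSeq start sites (GRCm38.p6) are shown for 5 members, since Gata2, Klf1, Alas2 and Blvrb moved in the comparisons below and Epor, like Klf1 and Alas2, carries a GATA motif within the bases shown. Slc4a1 also moved, and its window was not used here. Capitals mark the letters of a GATA motif, searched on both strands as the letters GATA with A or T before them and A or G after them. The motif lies within the 250 bases upstream in 26.5% of all 32851 RefSeq windows of this kind, so its presence sets no member apart. The windows of the first Tal1 and the second Blvrb start site, which are not shown, also held one, more than 120 bases upstream.
Gata2, first start site, chr6:88193771-88193890, plus strand: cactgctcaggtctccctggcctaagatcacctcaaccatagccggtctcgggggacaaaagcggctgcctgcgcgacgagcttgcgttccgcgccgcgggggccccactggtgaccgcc
Gata2, second start site, chr6:88198544-88198663, plus strand: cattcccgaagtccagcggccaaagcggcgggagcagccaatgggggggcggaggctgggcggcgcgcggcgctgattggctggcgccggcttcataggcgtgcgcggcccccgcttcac
Klf1, chr8:84901862-84901981, plus strand: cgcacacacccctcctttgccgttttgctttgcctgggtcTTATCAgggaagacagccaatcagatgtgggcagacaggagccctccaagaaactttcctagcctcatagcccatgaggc
Alas2, chrX:150547297-150547416, plus strand: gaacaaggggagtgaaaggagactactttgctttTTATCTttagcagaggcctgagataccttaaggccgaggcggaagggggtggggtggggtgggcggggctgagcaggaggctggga
Epor, chr9:21963577-21963696, minus strand: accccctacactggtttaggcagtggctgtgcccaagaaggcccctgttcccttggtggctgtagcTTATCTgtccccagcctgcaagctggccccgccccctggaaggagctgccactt
Blvrb, first start site, chr7:27447858-27447977, plus strand: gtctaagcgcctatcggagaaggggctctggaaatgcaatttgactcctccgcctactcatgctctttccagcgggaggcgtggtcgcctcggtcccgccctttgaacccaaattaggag
The Gata2 windows were rich in CpG, the dinucleotide that DNA methyltransferases act on, with 22 and 24 CpG in the 250 bases upstream of the first and second start site. The Klf1 window held 3, Alas2 4 and Epor 6, and the first and second Blvrb windows 18 and 3, against a median of 6 over all windows (quartiles 2 and 16). Methylation itself was not measured in these libraries.

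Among the 16 named classes measured in at least 3 WT embryos, 8 of the 9 genes had their highest mean level in the erythroid class, and Gata2 had its highest in endothelium. ExE ectoderm, held in number by WT 2 alone, and a small unnamed blood cluster (b11) are outside this order. Cells were put into classes by clusters named from marker genes, and no member was among the erythroid markers (globins, Smim1, Cited4 and Hemgn). The clustering used 2500 variable genes, and 1500 for blood cells, with the members left out. Genes that vary with cell type, globins among them, shaped the classes, so the levels by class are a description with no test. Gata1 averaged 104 CPM ± 12.4 (SD, n = 7) in erythroid cells and at most 0.732 in any other of the 16 classes. Klf1 averaged 160 CPM ± 22.2, Alas2 171 ± 52.2, Slc4a1 75.2 ± 54.8 and Epor 103 ± 11.4 in the erythroid class. For those 4 genes, as for Gata1 and Blvrb, no WT embryo's erythroid value came down to the range of the next class.
Tal1 averaged 114 CPM ± 7.73 in erythroid cells and 95.0 ± 13.3 in endothelium, with overlapping ranges. Runx1, needed for blood cells to arise from endothelium, averaged 56.5 CPM ± 21.0 in erythroid cells and 23.4 ± 4.36 in the ExE (extraembryonic) endoderm of the yolk sac, also with overlapping ranges. Gata2 averaged 32.0 CPM ± 4.72 in endothelium, 9.47 ± 2.09 in the allantois (n = 6) and 1.73 ± 1.01 in erythroid cells. The endothelial Gata2 values of the WT embryos all lay above those of the allantois.

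**Figure D1:**
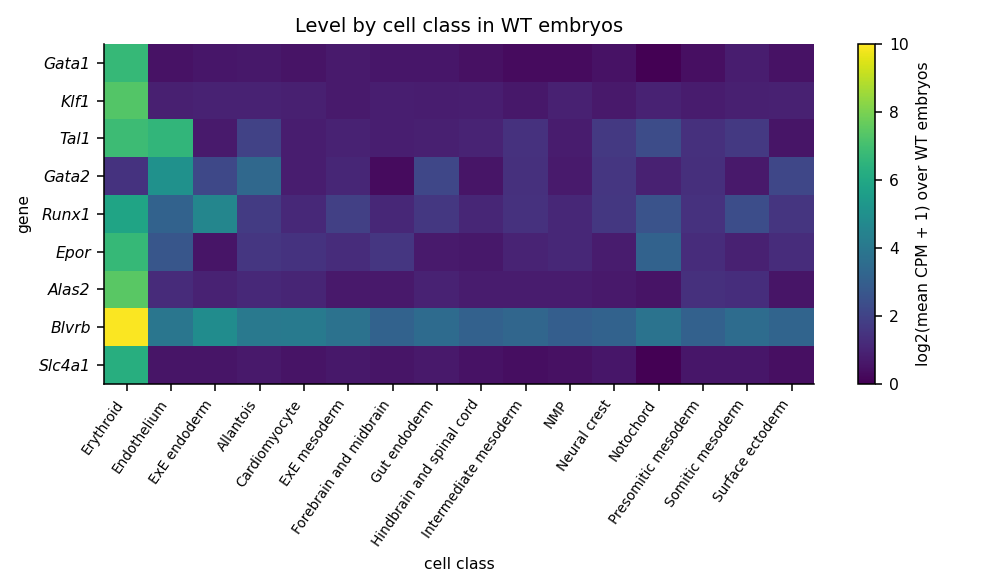
Mean level of each gene (rows) in each of the 16 named cell classes measured in at least 3 WT embryos (columns), as log2 of the mean CPM plus 1 in colour. Among these classes erythroid cells hold the highest mean of every gene but Gata2, which is highest in endothelium at 32.0 CPM, and Tal1 is high in both classes.

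The genes with the most similar profile over the 16 WT class means (Pearson's r of log2(CPM + 1), among 10354 genes, as a description) were Slc4a1 (0.998) and Asb17 (0.995) for Gata1, Hemgn (0.998) and 6030468B19Rik (0.997) for Klf1, and Itga2b (0.971) and Lyl1 (0.962) for Tal1. For Alas2 they were Trim10 (0.992) and Asb17 (0.992), for Slc4a1 Gata1 (0.998) and Rhag (0.996), and for Blvrb Tmem14c (0.989) and Nmnat3 (0.979). Gata2 was closest to Prkch (0.904) and Grk2 (0.893), Runx1 to Acp5 (0.909) and F10 (0.907), and Epor to 5430401H09Rik (0.962) and Spty2d1 (0.937). The 16 means share the same embryos and depth, and a gene found in 1 class alone reaches a high r with any other such gene.

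In whole embryos lacking Dnmt1, Klf1, Alas2, Blvrb and Slc4a1 fell and Gata2 rose. Klf1 fell by 2.80 (log2, SE 0.594, adjusted p 0.00145), Alas2 by 3.24 (SE 0.725, adjusted p 0.00216), Blvrb by 2.08 (SE 0.546, adjusted p 0.00663) and Slc4a1 by 4.96 (SE 1.15, adjusted p 0.00281), and Gata2 rose by 2.40 (SE 0.289, adjusted p 7.33e-06), each by edgeR. These 5 of 9 members passed the test, where 14.2% of all 18764 genes tested did. Gata1 (log2 difference -0.65, adjusted p 0.317), Tal1 (-0.64, adjusted p 0.161), Runx1 (0.51, adjusted p 0.0812) and Epor (-1.43, adjusted p 0.0349) did not pass by edgeR. In these sums over all cells, fewer cells of a type and less RNA per cell cannot be told apart. Without Dnmt1 KO 1 or without Dnmt1 KO 2, 2 of the 9 members passed, and without WT 2 or Dnmt1 KO 3 4 passed, Blvrb being lost. The Blvrb call was also lost with 1500 UMIs as the only filter on cells (-1.78, adjusted p 0.0136) and with sex as a covariate (-2.44, adjusted p 0.0110). In Dnmt3a KO and Dnmt3b KO embryos 0 of 9 members passed, against 0.213% and 1.8% of all genes. None of the 9 reached an unadjusted p under 0.05 in either comparison, and DESeq2 also called 0. Without Dnmt3b KO 11 or Dnmt3b KO 12 the count for Dnmt3b KO was 0 as well.

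The values by embryo show the spread behind these tests. Alas2, the first enzyme of red cell heme synthesis, ran from 5.83 to 62.7 CPM over WT embryos with a median of 13.5, and was 2.47, 2.78 and 2.62 CPM in Dnmt1 KO 1, 2 and 3. Slc4a1 ran from 1.78 to 42.4 CPM (median 4.77) in WT and was 0.549, 0.222 and 0.512 in the 3 Dnmt1 KO embryos. No Dnmt1 KO embryo reached the WT range for either gene. Gata2 lay between 2.56 and 6.60 CPM in WT (median 3.43) and at 12.7, 31.3 and 12.8 in Dnmt1 KO 1, 2 and 3. All 3 mutant embryos were above every WT embryo. Dnmt3a KO ran from 3.31 to 4.99 CPM of Gata2 and Dnmt3b KO from 4.12 to 6.69, inside the WT range but for Dnmt3b KO 12.

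The tissue that held Gata1 and Gata2 transcripts differed between Dnmt1 KO and WT embryos. Erythroid cells gave 89.5 to 100% of the Gata1 UMIs of a WT embryo, and 35.9 to 78.4% in Dnmt1 KO, where ExE ectoderm, the trophoblast of the future placenta, gave 15.8 to 60.4%. Of the Gata2 UMIs of Dnmt1 KO embryos, ExE ectoderm gave 26.1 to 76.2%, endothelium 5.54 to 23.5% and erythroid cells 7.82 to 15.04%. ExE endoderm gave 6.49 to 24.9% of the Gata2 UMIs in Dnmt1 KO and 5.5 to 26.9% in WT. In WT embryos endothelium gave 24.4 to 50.5% of the Gata2 UMIs, and in WT 2 ExE ectoderm gave 37.7%, more than its endothelium (24.4%). ExE ectoderm made up 80 of 1437, 929 of 2978 and 105 of 2186 kept cells in Dnmt1 KO 1, 2 and 3, and 126 of 7136 in WT 2, and at most 3 cells in any other embryo. Per the paper, tissue of the ecto-placental cone was taken for genotyping. It also reports relatively more ExE ectoderm in its Dnmt1 KO embryos, published CRISPR embryos included. How much ExE ectoderm was left on an embryo at dissection is not stated, and its part in the whole-embryo result was not tested.

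**Figure D2:**
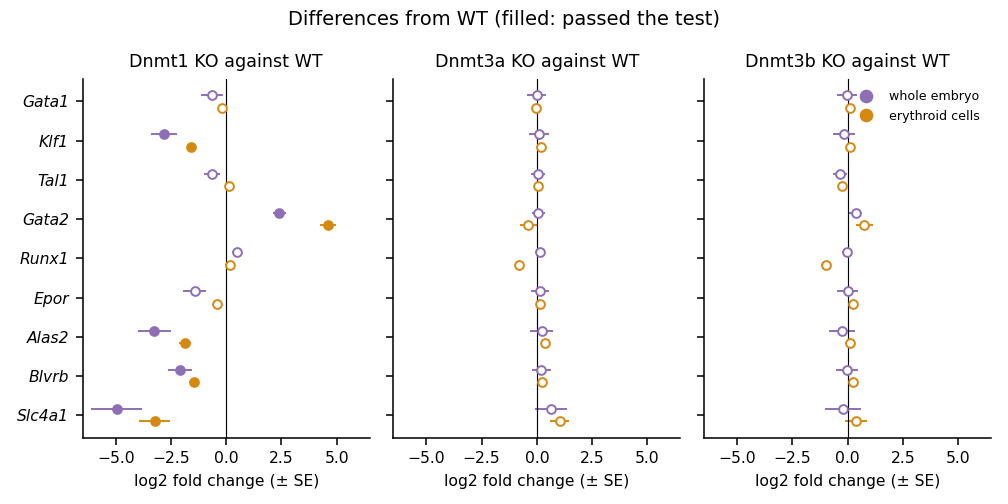
Log2 fold change against WT with its standard error (x axis) for each gene (rows) in Dnmt1 KO, Dnmt3a KO and Dnmt3b KO, over whole embryos and over erythroid cells. Filled points passed the test, and all filled points lie in the Dnmt1 KO panel.

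Erythroid cells were then compared among themselves, so that their number no longer entered. The class held 94 to 1680 cells an embryo in WT, 75 to 143 in Dnmt1 KO, 402 to 1159 in Dnmt3a KO and 531 to 1220 in Dnmt3b KO. With 1500 UMIs as the only filter it held 148, 367 and 570 cells in Dnmt1 KO 1, 2 and 3, against 75, 143 and 103 kept. In WT it then held 168 to 2050 cells. Its share of kept cells was 11.6% ± 6.93 (SD, n = 7) in WT and 4.91% ± 0.271 (n = 3) in Dnmt1 KO, a log2 difference of -1.03 that did not pass (exact two-sided permutation p 0.05, adjusted p 0.15 over 3 groups, smallest possible p 0.00833). That difference was -0.53 (exact permutation p 0.383) with extraembryonic classes left out of the total, and -0.09 (exact permutation p 0.833) with 1500 UMIs as the only filter on cells. The difference was 0.06 in Dnmt3a KO (exact permutation p 0.9) and -0.02 in Dnmt3b KO (exact permutation p 0.975). Globin took a median 6.34 to 16.5% of the UMIs of a WT erythroid cell and 1.27 to 2.36% in Dnmt1 KO. In Dnmt1 KO 276 of the 321 erythroid cells fell in cluster b12, which held no WT cell, and in Dnmt3b KO 12 485 of 531 fell in cluster b9, which held no WT cell either, so the clusters behind the class differ between the groups. Cluster b12 met the naming rule narrowly. Its erythroid marker score (mean standardized level of the class's markers) was 1.04 where 1 was needed, with megakaryocyte next at 0.685. The other erythroid clusters scored 1.39 to 1.95.

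Markers of other cell types were present in the erythroid sums, and those of endothelium, megakaryocytes and immune cells moved with the Dnmt1 KO group. The 10 endothelial markers summed to 164 to 219 CPM in Dnmt1 KO, with 9 of 10 above 0, and to 57.7 to 76.1 in WT, with 6 to 10 above 0. The 7 megakaryocyte markers summed to 73.1 to 93.0 CPM (5 of 7 above 0) against 19.4 to 34.6 (4 to 6 above 0), and the 7 immune markers to 5.27 to 8.89 (2 to 5 above 0) against 0 to 0.350 (0 to 3 above 0). ExE ectoderm markers summed to 1.76 to 8.20 CPM (2 to 7 of 7 above 0) against 0 to 2.18 (0 to 7 above 0). The 8 ExE endoderm markers, all above 0, summed to 23.5 to 116 CPM against 31.8 to 142. For both of these lists the ranges overlapped. In the endothelial class itself the endothelial markers summed to 1471 to 2297 CPM in Dnmt1 KO and 2238 to 3223 in WT. The part of such cells in the erythroid results was not tested.

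In erythroid cells of Dnmt1 KO, Gata2 rose, Klf1, Alas2, Blvrb and Slc4a1 fell, and Gata1 stayed within the WT range. The same 5 of 9 members passed as over whole embryos, where 13.5% of all 12155 genes tested did. In Dnmt3a KO and Dnmt3b KO 0 of 9 passed, against 0.148% and 0.872% of all genes. At an unadjusted p under 0.05, Runx1 and Slc4a1 were past in Dnmt3a KO and Runx1 and Tal1 in Dnmt3b KO, and DESeq2 called 0 in both. Leaving out Dnmt3b KO 11 or Dnmt3b KO 12 also left 0 of 9.

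**Figure D3:**
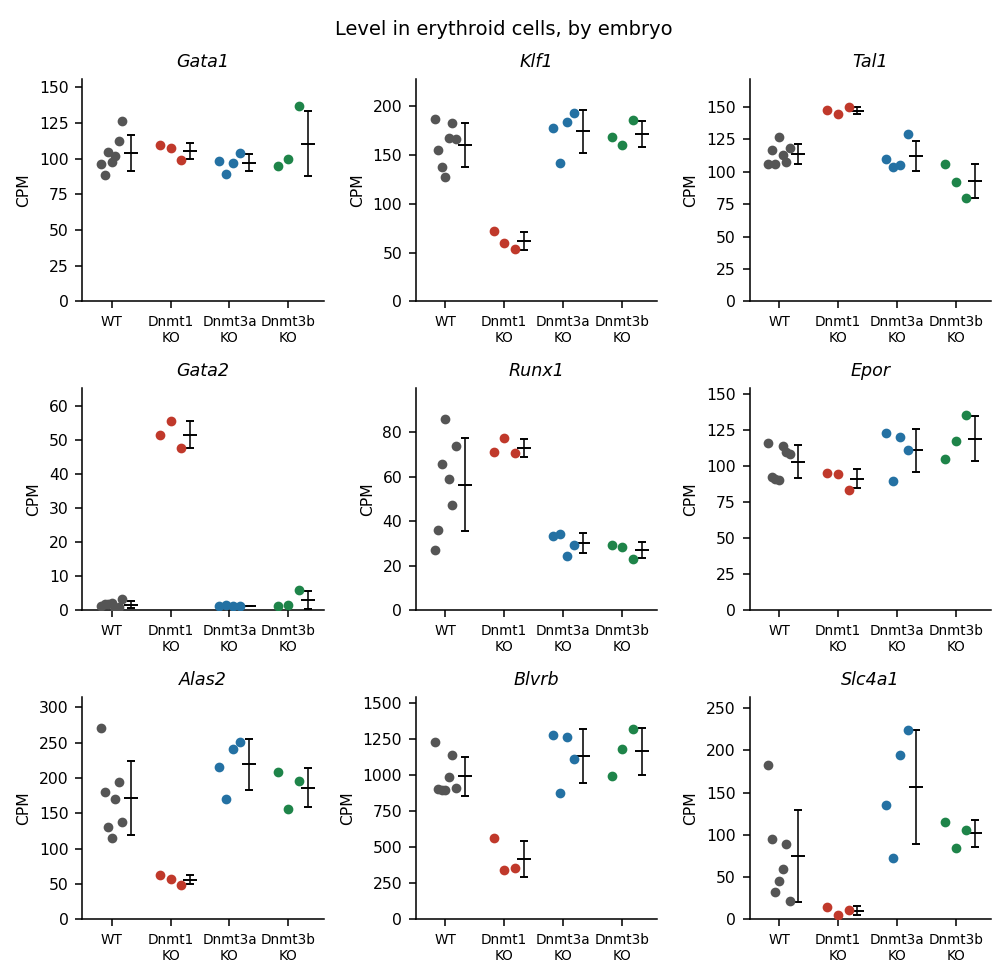
Level of each gene (CPM, y axis) in the erythroid cells of each embryo, by group, with the mean and SD beside the points and Dnmt3b KO 1 and 2 as 1 point. Gata2 lies between 47.8 and 55.6 CPM in Dnmt1 KO and at or under 6.04 in every other embryo, and the Dnmt1 KO embryos lie under all WT embryos for Klf1, Alas2, Blvrb and Slc4a1.

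Gata1, the main activator of the red cell programme, ran from 88.6 to 127 CPM (median 102) in WT erythroid cells and was 109, 108 and 98.7 in Dnmt1 KO 1, 2 and 3. The Dnmt1 KO values lay inside the WT range. After TMM scaling between libraries the log2 difference was -0.21 (SE 0.121, adjusted p 0.178 by edgeR). Over 32 alternatives this difference ran from -0.26 to 0.098, so its sign was not settled. The log2 difference was -0.04 in Dnmt3a KO (adjusted p 0.927) and 0.12 in Dnmt3b KO (adjusted p 0.611). Gata1 was highest of all embryos in Dnmt3b KO 12, at 137 CPM.

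Gata2, its progenitor-stage relative, ran from 0.349 to 3.50 CPM (median 1.75) in WT erythroid cells, on 1 to 90 UMIs an embryo. It was 51.5, 55.6 and 47.8 CPM in Dnmt1 KO 1, 2 and 3, on 199, 319 and 136 UMIs, with 95% Poisson intervals of 44.6 to 59.2, 49.7 to 62.1 and 40.1 to 56.5 that cover counting error only. Every Dnmt1 KO embryo lay above every other embryo of the series. Gata2 rose by 4.60 (log2, SE 0.352, adjusted p 2.31e-08 by edgeR). In Dnmt3a KO it ran from 1.19 to 1.46 CPM (log2 difference -0.39, adjusted p 0.734). In Dnmt3b KO it was 1.54, 1.21 and 1.63 in embryos 1, 2 and 11 and 6.04 in Dnmt3b KO 12, above the WT range (log2 difference 0.74, adjusted p 0.352). Without Dnmt3b KO 12 that Gata2 difference was -0.28 (adjusted p 0.896), and without Dnmt3b KO 11 it was 1.02 (adjusted p 0.264).

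The ratio of Gata2 to Gata1 UMIs put the pair on 1 scale within each embryo, which the total of an embryo cannot change. It was 0.00343 to 0.0276 in WT erythroid cells, 0.472 to 0.517 in Dnmt1 KO, 0.0122 to 0.0163 in Dnmt3a KO and 0.0122 to 0.0442 in Dnmt3b KO. The ratio of Gata1 to Klf1 was 0.513 to 0.769 in WT and 1.52 to 1.84 in Dnmt1 KO. For both ratios the Dnmt1 KO and WT ranges did not overlap.

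Single cells held both GATA transcripts. In Dnmt1 KO 1, 2 and 3 a Gata2 UMI was found in 42 of 75, 91 of 143 and 39 of 103 erythroid cells, and 38, 84 and 33 of these cells also held a Gata1 UMI. Gata1 UMIs were found in 65, 131 and 61 of the erythroid cells of these embryos. At least 1% globin UMIs were held by 54, 93 and 56 of their erythroid cells. Of their cells with a Gata2 UMI, 26, 49 and 17 did so. In WT 1 and WT 4, 1677 of 1680 and 189 of 194 erythroid cells held at least 1% globin UMIs. Among erythroid cells with a Gata2 UMI, 84.6 to 92.3% in Dnmt1 KO and 84.6 to 100% in WT also held a Gata1 UMI. In WT 1.06 to 14.6% of erythroid cells held a Gata2 UMI, in Dnmt3a KO 2.44 to 4.49% and in Dnmt3b KO 1.39 to 18.8%, the highest being Dnmt3b KO 12 with 100 of 531 cells, above the WT range. Depth differed between embryos (medians of 12226 to 68743 UMIs a cell in WT and 10079 to 55373 in Dnmt1 KO), so cells were also thinned to 3000 UMIs, leaving out 402 shallower WT cells and 38 Dnmt1 KO cells. The share with Gata2 was then 11.6 to 12.7% in Dnmt1 KO and 0.0574 to 0.924% in WT. Forebrain and midbrain, the named class with the least Gata2 in WT, gave 0 to 0.122% in WT at the same depth (medians of 23949 to 62248 UMIs before thinning, and 0 to 1.92% of cells unthinned), and Dnmt1 KO embryos held no such cells. ExE mesoderm, present in both groups, gave 0.0293 to 0.468% in WT and 0.370 to 0.909% in Dnmt1 KO (medians of 6723 to 58304 and 31171 to 51024 UMIs, and 0.676 to 6.11% and 6.45 to 7.29% unthinned). The WT erythroid shares overlapped those of both classes, and the Dnmt1 KO erythroid shares lay above all of them. Both classes were chosen for this after their levels were seen.

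Klf1, a factor that activates globin and heme genes, ran from 127 to 187 CPM (median 166) in WT erythroid cells and was 72.0, 60.2 and 53.7 in Dnmt1 KO. All 3 mutant values lay under the WT range. It fell by 1.60 (log2, SE 0.166, adjusted p 8.11e-07 by edgeR). Dnmt3a KO ran from 142 to 192 CPM and Dnmt3b KO from 152 to 186, and neither differed from WT by the test (log2 differences 0.16 and 0.12, adjusted p 0.665 and 0.712 by edgeR).

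Tal1, the partner of GATA factors in red cells and progenitors, ran from 106 to 127 CPM (median 113) in WT and was 147, 144 and 150 in Dnmt1 KO. The CPM ranges did not overlap, and after TMM scaling between libraries the log2 difference was 0.14 (SE 0.0830, adjusted p 0.176 by edgeR). In Dnmt3b KO Tal1 was 102, 110, 92.4 and 79.6 CPM in embryos 1, 2, 11 and 12 (log2 difference -0.26, adjusted p 0.124). Dnmt3a KO ran from 104 to 129 CPM (log2 difference 0.03, adjusted p 0.928).

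Runx1 ran from 26.9 to 86.1 CPM (median 59.0) in WT erythroid cells and was 71.0, 77.6 and 70.6 in Dnmt1 KO, inside the WT range (log2 difference 0.18, SE 0.223, adjusted p 0.541 by edgeR). It was 33.4, 34.3, 24.3 and 29.3 CPM in Dnmt3a KO 1, 2, 13 and 14, and 28.0, 30.9, 28.7 and 23.2 in Dnmt3b KO 1, 2, 11 and 12. Dnmt3a KO 13 and Dnmt3b KO 12 lay under the WT range, and the others at its low end, where WT 1 and WT 2 lay at 26.9 and 36.1. The log2 difference was -0.81 in Dnmt3a KO (SE 0.202, adjusted p 0.107) and -0.99 in Dnmt3b KO (SE 0.227, adjusted p 0.0259), and neither passed by edgeR. By DESeq2 the same differences were -0.81 (adjusted p 0.00978) and -0.99 (adjusted p 8.81e-04), under the fold threshold. Without WT 1 the Dnmt3b KO difference was -1.10 (adjusted p 0.00322) and passed. It was -0.91 (adjusted p 0.236) without Dnmt3b KO 12 and -1.04 (adjusted p 0.0620) without Dnmt3b KO 11. With sex as a covariate the differences were -0.59 (adjusted p 0.575) in Dnmt3a KO and -0.84 (adjusted p 0.113) in Dnmt3b KO.

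Epor ran from 90.3 to 116 CPM (median 108) in WT erythroid cells and was 95.3, 94.7 and 83.6 in Dnmt1 KO, 1 of them under the WT range. The log2 difference was -0.41 (SE 0.147, adjusted p 0.0317 by edgeR) and did not pass. It was 0.16 in Dnmt3a KO (adjusted p 0.652) and 0.24 in Dnmt3b KO (adjusted p 0.393), with Dnmt3b KO 12 the highest embryo at 135 CPM.

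Alas2 ran from 115 to 270 CPM (median 170) in WT erythroid cells and was 62.2, 56.5 and 49.2 in Dnmt1 KO. All 3 lay under the WT range. It fell by 1.86 (log2, SE 0.267, adjusted p 2.45e-05 by edgeR). Dnmt3a KO ran from 171 to 251 CPM and Dnmt3b KO from 155 to 214, both inside the WT range.

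Blvrb, the reductase of biliverdin, ran from 894 to 1227 CPM (median 909) in WT erythroid cells and was 565, 342 and 355 in Dnmt1 KO. The ranges did not overlap, and the log2 difference was -1.48 (SE 0.205, adjusted p 1.75e-05 by edgeR). Slc4a1 ran from 21.7 to 183 CPM (median 60.1) in WT and was 14.5, 4.88 and 11.6 in Dnmt1 KO, on 56, 28 and 33 UMIs. The ranges did not overlap, and Slc4a1 fell by 3.24 (log2, SE 0.698, adjusted p 0.00106 by edgeR). Without Dnmt1 KO 2 its difference was -2.84 (adjusted p 0.0124) and did not pass. In Dnmt3a KO Slc4a1 was 136, 72.7, 194 and 224 CPM in embryos 1, 2, 13 and 14, of which 2 lay above the WT range (log2 difference 1.03, SE 0.439, adjusted p 0.450). Among WT embryos it varied most for its level, with an SD of 54.8 on a mean of 75.2 CPM.

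The KO groups were also compared with each other, with no WT embryo on either side of the contrast. Between Dnmt1 KO and Dnmt3a KO 5 of 9 members passed (14.2% of all genes), the same 5 as against WT. Gata2 was higher in Dnmt1 KO by 4.99 (log2, adjusted p 1.49e-07) and Slc4a1 lower, with a difference of -4.28 (adjusted p 1.69e-04), both by edgeR. Between Dnmt1 KO and Dnmt3b KO 6 of 9 passed (11.4% of all genes), the sixth being Runx1, higher in Dnmt1 KO by 1.17 (SE 0.265, adjusted p 0.00199). That Runx1 difference was 1.22 (adjusted p 0.00647) without Dnmt3b KO 11 and 1.09 (adjusted p 0.00948) without Dnmt3b KO 12. The Runx1 call was lost in 4 of 31 alternatives, among them with thinned totals (0.996, adjusted p 0.00560), without Dnmt1 KO 2 (1.11, adjusted p 0.0104) and in the lowest bin of globin share described below (0.81, adjusted p 0.00212). Runx1 also differed from Dnmt3a KO, by 0.99 (adjusted p 0.00309), just under the fold threshold, and in 12 of 31 alternatives it passed (range of all 0.61 to 1.07). Between Dnmt3b KO and Dnmt3a KO 0 of 9 passed (0.0329% of all genes). Without Dnmt3b KO 11 or Dnmt3b KO 12 the count was also 0. Gata2 differed by 1.13 (SE 0.434, adjusted p 0.715), by 0.11 (adjusted p 1) without Dnmt3b KO 12 and by 1.41 (adjusted p 0.383) without Dnmt3b KO 11. Tal1 had the smallest adjusted p (-0.29, SE 0.0905, adjusted p 0.363). These 2 members were under an unadjusted p of 0.05.

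Other genes of the same pathways were read from fixed lists in the erythroid cells of Dnmt1 KO, and the counts stand beside the 13.5% of all genes called there in either direction. Of 12 genes of heme synthesis and its mitochondrial transport, 0 rose and 7 fell, with a median log2 difference of -1.15 against -0.01 over all genes. The most changed were Alad, the second enzyme of the pathway, which fell by 2.15 (adjusted p 2.11e-07), Urod, which fell by 1.69 (adjusted p 7.37e-06), Ppox, which fell by 1.59 (adjusted p 1.44e-05), and Fech, which inserts iron and fell by 1.30 (adjusted p 1.81e-04), by edgeR. Of 15 iron and heme handling genes tested, 1 rose and 2 fell, a share near that of all genes. Hmox1, the oxygenase that breaks heme down, rose by 2.24 (adjusted p 1.14e-05), and Slc25a37, the mitochondrial iron importer mitoferrin, and Steap3, a ferrireductase, fell by 1.93 and 1.74 (adjusted p 8.61e-06 and 4.26e-06 by edgeR).

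Of 16 genes of the red cell membrane and its skeleton, 0 rose and 8 fell. Add2, which encodes beta-adducin, fell by 3.43 (adjusted p 1.86e-08), the ammonia channel gene Rhag by 2.80 (adjusted p 0.00235), Rhd by 2.51 (adjusted p 6.51e-06) and the tropomodulin gene Tmod1 by 2.21 (adjusted p 1.86e-08), by edgeR. Of 8 globin genes 0 rose and 4 fell, namely Hba-a2 by 2.69, Hba-x by 2.44, Hba-a1 by 2.36 and Hbb-bh1 by 1.71. Of 15 transcription partners tested, 2 rose and 2 fell. Myb, a progenitor factor, rose by 1.74 (adjusted p 0.00375) and Cbfb, the partner of RUNX1, by 2.10 (adjusted p 8.43e-07), and Klf3 fell by 2.13 (adjusted p 2.79e-06) and Zfpm1, the GATA1 cofactor FOG1, by 1.17 (adjusted p 1.08e-04), by edgeR. Of 9 erythropoietin signalling genes tested, 0 passed in either direction. In Dnmt3a KO and Dnmt3b KO erythroid cells no gene of these lists passed, where 0.148% and 0.872% of all genes did, shares at which lists of this length would hold few or none.

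Since globin content differed so widely, erythroid cells were also compared within 3 bins of the globin share, cut at 8.37% and 11.5% of a cell's UMIs. Each bound is the mean over WT embryos of their own tertile bounds, so the bins hold unequal numbers of cells (113, 167 and 1400 in WT 1). Only the lowest bin held enough Dnmt1 KO cells (69, 141 and 99 cells). The match was partial, since median globin in that bin was 1.19 to 2.29% in Dnmt1 KO and 5.37 to 6.95% in WT. Within it Gata2 ran from 0.603 to 7.93 CPM in WT and from 48.3 to 55.7 in Dnmt1 KO (log2 difference 3.84, adjusted p 8.15e-08). Klf1 (-1.34, adjusted p 9.42e-07), Alas2 (-1.33, adjusted p 1.40e-06), Blvrb (-1.18, adjusted p 4.69e-06) and Slc4a1 (-1.83, adjusted p 0.00849) passed as well by edgeR. The 5 log2 differences were all smaller in size than over all erythroid cells. Runx1 in the lowest bin ran from 54.6 to 93.6 CPM in WT and from 41.2 to 49.3 in Dnmt3a KO, with no overlap (log2 difference -0.68, adjusted p 0.0309). It was -0.89 in Dnmt3b KO (adjusted p 0.00295), under the fold threshold. In the middle bin Runx1 differed by -0.52 in Dnmt3a KO (adjusted p 0.347) and by -0.61 in Dnmt3b KO (adjusted p 0.142). In the highest bin it ran from 23.4 to 42.4 CPM in WT, 21.7 to 27.0 in Dnmt3a KO (log2 difference -0.30, adjusted p 1), which overlap, and 17.0 to 20.8 in Dnmt3b KO (-0.60, adjusted p 0.313), which lies under WT.

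**Figure D4:**
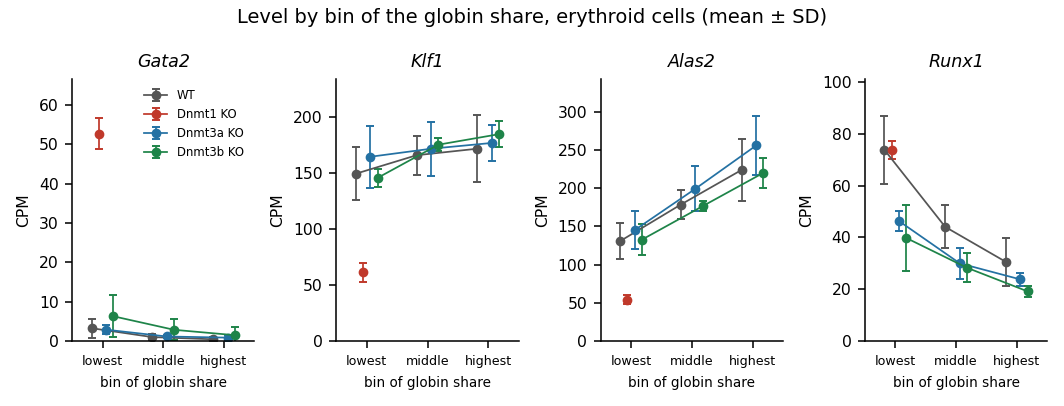
Mean level (CPM, y axis, with SD over embryos) of Gata2, Klf1, Alas2 and Runx1 in erythroid cells by bin of the globin share (x axis), over the embryos of each group with at least 25 cells in that bin. Dnmt1 KO is present in the lowest bin alone, where its Gata2 runs from 48.3 to 55.7 CPM, and in WT mean Runx1 is lower and mean Alas2 higher in the highest bin than in the lowest.

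In endothelial cells of Dnmt1 KO 4 members rose, Gata1 among them, and none fell. Over all genes tested there, 9.14% were called. Gata1 ran from 0 to 1.06 CPM in WT endothelium, on 0 to 8 UMIs an embryo. It was 5.15, 8.59 and 18.3 CPM in Dnmt1 KO 1, 2 and 3, on 22, 34 and 64 UMIs. A Gata1 UMI was found in 4 of 69, 15 of 110 and 12 of 155 endothelial cells of these embryos, so most cells held none. In WT 0 to 5 endothelial cells of an embryo held one. All 3 Dnmt1 KO values lay above every WT embryo, and the highest of the other embryos was Dnmt3a KO 2, at 4.38 CPM. The log2 difference was 4.67 (SE 0.665, adjusted p 3.07e-05 by edgeR). With so few UMIs in WT, Gata1 met the filter on low counts through the Dnmt1 KO embryos, the group where it is high. Its adjusted p therefore adds no support beyond the values by embryo. Gata2 rose by 1.11 (adjusted p 2.27e-06), from 24.0 to 38.7 CPM in WT to 57.1 to 72.8 in Dnmt1 KO. Runx1 rose by 1.99 (adjusted p 8.63e-05), from 1.68 to 12.01 CPM in WT to 28.6 to 33.8.

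Epor rose by 1.03 (adjusted p 0.00840), from 4.16 to 6.997 CPM in WT to 8.43 to 14.04. Leaving out 1 library ended the Epor call in 9 of 18 fits, those without WT 1, 4, 5 or 6, without any one of the Dnmt1 KO embryos, or without Dnmt3a KO 1 or 13, and without Dnmt1 KO 3 its log2 difference was 0.73 (adjusted p 0.108). Tal1 differed by 0.59 (adjusted p 0.00184), under the fold threshold. Klf1 (log2 difference 1.22, adjusted p 0.197), Alas2 (0.91, adjusted p 0.382) and Blvrb (0.73, adjusted p 0.0669) did not pass, and Slc4a1 had 0 UMIs in the endothelium of all 3 Dnmt1 KO embryos. The erythroid markers summed to 79.4 to 691 CPM in Dnmt1 KO endothelium and 37.0 to 1851 in WT, ranges that overlap. In the erythroid cells themselves they summed to 21403 to 33862 CPM in Dnmt1 KO and 59437 to 166261 in WT. The part of erythroid RNA in the endothelial values was not tested. In erythroid cells of Dnmt1 KO the ratio of Gata1 to Klf1 was 1.52 to 1.84, and in their endothelium it was 4.57 to 11. The endothelial ratio rests on few Klf1 UMIs, found in 2, 4 and 3 cells of Dnmt1 KO 1, 2 and 3. That ratio was 0 to 2 in WT, 0.214 to 2.5 in Dnmt3a KO and 0.25 to 4 in Dnmt3b KO. Megakaryocyte markers summed to 72.2 to 81.0 CPM in Dnmt1 KO endothelium against 20.2 to 47.0 in WT, and their part was not tested. Cluster c42 held 47, 93 and 39 of the endothelial cells of Dnmt1 KO 1, 2 and 3, and cluster c16 held 116 in Dnmt1 KO 3. WT endothelial cells lay in c13 and c16, with at most 4 cells of an embryo in c42. Within c42 Runx1 was 29.9, 33.2 and 36.2 CPM in Dnmt1 KO 1, 2 and 3, and 85.4 to 277 in those few WT cells, so the order of the groups in that cluster was the reverse of that over the class. Gata1 in Dnmt1 KO 1 and 2 came from c42 alone, at 0 UMIs in their c13 and c16 cells. The endothelial markers of the class ran lower in Dnmt1 KO than in WT, with ranges that overlap (1471 to 2297 against 2238 to 3223 CPM), and their part was not tested.

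**Figure D5:**
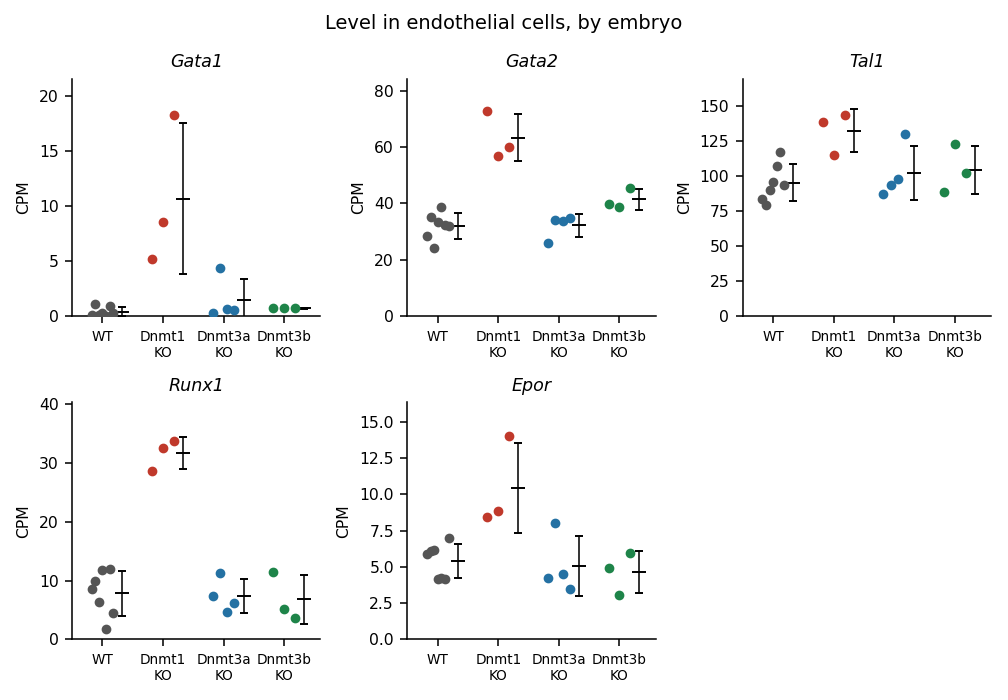
Level (CPM, y axis) of Gata1, Gata2, Tal1, Runx1 and Epor in the endothelial cells of each embryo, by group, with the mean and SD beside the points and Dnmt3b KO 1 and 2 as 1 point. Gata1, Gata2, Runx1 and Epor lie higher in all 3 Dnmt1 KO embryos than in every WT embryo.

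The effect of a KO in erythroid cells was tested against its effect in endothelium within the same embryos. For Dnmt1 KO 6 of 9 members passed (8.61% of all 12725 genes). The erythroid effect was the higher one for Gata2 (difference of log2 effects 3.47, adjusted p 1.40e-07) and the lower one for Gata1 (-4.84, adjusted p 1.14e-05), Klf1 (-2.82, adjusted p 0.00802), Blvrb (-2.26, adjusted p 2.87e-05), Runx1 (-1.74, adjusted p 5.63e-04) and Epor (-1.43, adjusted p 0.00210), by edgeR. Alas2, with a difference of -2.83 (adjusted p 0.0110), did not pass, and passed in 6 of 19 alternatives. Without Dnmt1 KO 3, 3 of 9 passed, with Klf1, Runx1 (-1.55, adjusted p 0.0114) and Epor (-0.99, adjusted p 0.0613) lost. The Klf1 call was lost in 8 of 18 fits that left out 1 library, those without WT 1, 3, 4, 5, 6 or 7 or Dnmt1 KO 2 or 3 (differences of -3.02 to -1.53, adjusted p 0.0110 to 0.3298). For Dnmt3a KO and Dnmt3b KO 0 of 9 passed by edgeR (0.0157% and 0.0472% of all genes), and without Dnmt3b KO 11 or 12 the latter count was also 0. At an unadjusted p under 0.05 there were 0 in Dnmt3a KO and 1, Tal1, in Dnmt3b KO. DESeq2 was not run on this difference.

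Outside the erythroid class, the pairs of member and class that could be tested numbered 34 for Dnmt1 KO, 95 for Dnmt3a KO and 93 for Dnmt3b KO. Of these 5, 0 and 1 passed, against 7.97%, 0.112% and 0.708% of all pairs of gene and class. The 5 include endothelial Gata1, which met the filter on low counts through the Dnmt1 KO embryos. For the 0 in Dnmt3a KO, 9 of 95 pairs had an unadjusted p under 0.05 by edgeR, the only tool run. Among all pairs of gene and class 18046 of 179034 did, a share near that of the members. Beside the 4 in endothelium, Gata2 rose by 1.19 in the ExE endoderm of Dnmt1 KO (SE 0.269, adjusted p 0.00356), from 1.80 to 4.73 CPM in WT to 7.02 to 8.43, where 5.31% of all genes tested were called. Without any one of the Dnmt1 KO embryos that call was lost (log2 difference 1.13 to 1.26, adjusted p 0.0129 to 0.0193). The call in Dnmt3b KO was Runx1 in ExE endoderm, which rose by 1.01 (SE 0.143, adjusted p 3.11e-04 by edgeR), where 1.3% of all genes tested were called. It was 0.85 (adjusted p 0.00591) without Dnmt3b KO 12, 1.04 (adjusted p 0.00159) without Dnmt3b KO 11 and 0.95 (adjusted p 2.64e-04) with Dnmt3b KO 1 and 2 as 2 replicates, so the first and the last fell under the fold threshold. Without WT 3, 4 or 6 or Dnmt3b KO 2 it was 0.95 to 0.98, also under it.

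Runx1 was higher than WT in the ExE endoderm of every KO group by its values. It ran from 18.3 to 29.0 CPM (median 23.9) in WT, and was 43.0, 38.1 and 33.8 in Dnmt1 KO, 40.8, 38.1, 47.4 and 40.5 in Dnmt3a KO 1, 2, 13 and 14, and 36.5, 47.5, 44.2 and 58.5 in Dnmt3b KO 1, 2, 11 and 12. Every KO embryo lay above every WT embryo. The log2 differences were 0.75 in Dnmt1 KO (adjusted p 0.00120) and 0.83 in Dnmt3a KO (adjusted p 0.00179), both under the fold threshold. The 3 comparisons share the 7 WT embryos. The clusters behind this class also differed, since 98.6% of the clustered cells of c9, one of its 4 clusters, were from Dnmt1 KO.

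Gata1 was also read in ExE ectoderm, the tissue of trophoblast, without a test because WT 2 was the only WT embryo with 25 or more such cells. It was 16.6 CPM in WT 2 and 11.8, 22.3 and 21.0 in Dnmt1 KO 1, 2 and 3. Gata2, which is also a trophoblast factor, was 136 CPM in WT 2 and 47.9, 66.7 and 49.6 in Dnmt1 KO. The ratio of Gata1 to Klf1 UMIs was 4.17 in WT 2 and 28.3 to 118 in Dnmt1 KO, against 0.513 to 1.84 in the erythroid cells of both groups. The Klf1 UMIs behind the ExE ectoderm ratios numbered 12 in WT 2 and 1 to 24 in the Dnmt1 KO embryos.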

How the data were processed

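Per the labels and the study's methods, single-cell libraries of 18 embryos (10x Genomics 3′ v3) were processed by the authors with Cell Ranger, and the deposited values are raw UMI counts per gene and barcode. The methods name version 5.0.0, while the file headers give 3.1.0 for all libraries but Dnmt3b KO 12 (5.0.0). The reference behind 4 libraries (WT 1, Dnmt3a KO 1 and 13, Dnmt3b KO 11) held human genes beside those of the mouse, and only mouse genes were used. Antisense and overlapping genes were taken as the files give them.

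Barcodes with at least 1500 mouse UMIs, at most 30% mitochondrial and at most 35% ribosomal protein counts were kept, less Scrublet doublets at a rate of 0.8% per 1000 cells, leaving 108028 of 128881 barcodes. Cells were clustered in 2 passes (scanpy 1.11.5, leidenalg 0.10.2, igraph 0.11.9) and clusters were named from marker lists. The naming thresholds and the second pass over blood cells were set after the clusters were seen. The members and gene lists were chosen with earlier results of these data known. Counts were summed per embryo over all kept cells or over a class with at least 25 cells an embryo in at least 3 embryos a group, and CPM are these sums per 1000000 UMIs. Sums were tested in edgeR 4.0.16 (quasi-likelihood, TMM scaling, low counts filtered, 1 model over the 4 groups; R 4.3.3, limma 3.58.1), with DESeq2 1.42.0 as an alternative. Shares of cells were compared by exact permutation of embryos (Python 3.11.15, numpy 2.4.6, scipy 1.17.1, pandas 2.3.3). The edgeR step was run on simulated counts with the same dispersion for every gene, which checks the fit and not the spread between these embryos. Intervals cover counting error only. The labels do not say whether WT embryos share litters, and p-values measure the spread between these samples.

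Genes named are the members, up to 4 called genes with the largest change per pathway list and KO group in erythroid cells, the 2 genes most alike each member over WT classes, and the targeted and Y-linked genes as checks. Cells with few UMIs limit precision, and totals ran from 36466660 to 234638944 UMIs an embryo. Alternatives covered scaling, filters, covariates, the replicate number as a block, thinning, globin content and leaving out each library. Leaving out each library in classes other than erythroid cells, between KO groups and in the test between classes, leaving out cluster b14, and leaving out both libraries that share barcodes were chosen after seeing the data.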

Additional observations from a re-analysis of the deposited data

Results flagged for a closer look

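Over whole WT embryos, WT 2 stood apart for Gata2, at 6.60 CPM with the nearest WT embryo at 4.01. Its gap to that embryo was 0.641 of the range of the 7 embryos. WT 2 held 126 ExE ectoderm cells, and the other WT embryos at most 1, and their part in this value was not tested. There were 38 such checks, and chance alone marks about 1 in 20.

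The effect of Dnmt1 loss differed between erythroid and endothelial cells for 6 members, by a test of the difference itself (edgeR, erythroid minus endothelial log2 effect). The difference was 3.47 for Gata2, -4.84 for Gata1, -2.82 for Klf1, -2.26 for Blvrb, -1.74 for Runx1 and -1.43 for Epor. For Gata1 the endothelial effect was 4.67 and the erythroid effect -0.21, of which the second did not pass. For Klf1 the endothelial effect was 1.22 and the erythroid effect -1.60, of which the first did not pass. The Klf1 difference was lost in 8 of 18 fits that left out 1 library, and was -1.53 without Dnmt1 KO 3. The Runx1 (-1.55, adjusted p 0.0114) and Epor (-0.99, adjusted p 0.0613) differences were also lost without Dnmt1 KO 3, by edgeR.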

How the results depend on the processing

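Of 2804 alternatives for single genes, 2741 kept the side of the threshold, 43 lost a call, 20 gained one and 0 turned the sign of a call. In 1980 of the 2804 the gene was called neither in the main fit nor in the alternative, and 149 of these changed sign. Leaving out 1 library gave 2 to 5 members past the test over whole embryos of Dnmt1 KO, the 2 coming without Dnmt1 KO 1 or Dnmt1 KO 2. Over the same fits the erythroid cells of Dnmt1 KO gave 4 to 5 members and those of Dnmt3b KO 0 to 1, the 1 being Runx1 without WT 1. In other classes Dnmt1 KO gave 3 to 5, the 3 without any one of its embryos, and Dnmt3b KO 0 to 2, the 0 without WT 3, 4 or 6 or Dnmt3b KO 2 or 12. The 2 in Dnmt3b KO, without Dnmt3b KO 11, were Runx1 in ExE endoderm and Gata2 in presomitic mesoderm (1.92, adjusted p 0.00783). With Dnmt3b KO 1 and 2 as 2 replicates Dnmt3b KO gave 0. The difference between erythroid and endothelial effects of Dnmt1 KO gave 3 to 7 members, the 3 coming without Dnmt1 KO 3 and the seventh being Alas2. The cause was not tested.

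The erythroid share in Dnmt1 KO was lower by -4.71 (log2) and passed when cells needed 10% globin UMIs, which few Dnmt1 KO cells reached, leaving out 1 library gave -1.20 to -0.84, and it was -0.53 without extraembryonic classes in the total and -0.09 with 1500 UMIs as the only filter, neither of which passed. Sex as a covariate gave 4 members over whole Dnmt1 KO embryos, without Blvrb. Dnmt1 KO could not be fitted in the middle or highest globin bin, for lack of cells.

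Same-numbered samples correlated from -0.25 to 0.44 in their deviations from the group means, so the numbers do not pair the embryos. With the replicate number as a block, 5 members passed in Dnmt1 KO over whole embryos and 5 in erythroid cells, and 0 in the other KO groups, where erythroid Runx1 was -0.12 in Dnmt3a KO and -0.39 in Dnmt3b KO. Between Dnmt1 KO and Dnmt3b KO it gave 5 in place of 6, with Runx1 at 0.98 (adjusted p 0.0121).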

Other observations

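A further cluster of blood cells, b11, was left without a name because its leading genes included those of another class. Its highest marker score was that of megakaryocytes, at 5.67, with immune cells next at 2.17. The cluster entered no test, since several embryos held few of its cells. In the WT embryos with at least 20 of them, WT 1, 2 and 3, Runx1 was 173, 165 and 190 CPM and Gata2 19.7, 19.5 and 19.9. Runx1 ran from 120 to 131 CPM in the 3 Dnmt3a KO embryos with as many cells. In Dnmt3b KO 12 it was 68.4 CPM and Gata2 77.5, and in Dnmt3b KO 1, 2 and 11 Runx1 was 139, 153 and 131. Dnmt1 KO embryos held 4, 0 and 0 of these cells.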
